A study of Homo sapiens with 6 samples.

Results

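Among the 2575 mature miRNA entries counted in exosomes of the colorectal cancer line HCT116, 11 belong to 6 miRNAs best known from blood cells. They were chosen by name, as every entry of miR-451a, miR-144 and miR-486 (5 erythroid entries) and of miR-223, miR-142 and miR-150 (6 leukocyte entries). A count was found for 10 of the 11, and 5 held enough counts to be tested. The material was exosomes, the small vesicles that cells release, spun out of the culture medium of HCT116 cells, passage 16 to 19. The 3 libraries titled ETBF came from cells that shared their culture with enterotoxigenic Bacteroides fragilis (ETBF), an anaerobic gut bacterium that secretes a toxin, for 6 h, at a multiplicity of infection of 500. The 3 libraries titled untreated came from cells given the bacterial medium without the bacterium. HCT116 is an established epithelial tumour line, and no blood cell is named in the labels.

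The names of the deposited files give the opposite group to the sample titles in 6 of 6 libraries. Groups follow the titles throughout, and should the file names hold instead, all directions given here turn round while sizes, errors and p-values stay. Totals ran from 200207 to 417321 counts per library, so that 3 counts, taken as the floor of detection, stand for 8.26 to 14.6 CPM, the count per 1e6 counts of the TMM-scaled library. Of 5 colorectal epithelial markers all 5 had enough counts to be tested. The highest, miR-192-5p, stood at 8532 ± 551 CPM in the titled ETBF libraries and 10565 ± 499 CPM in the titled untreated libraries (SD, n = 3 each). The lowest, miR-141-3p, stood at 129 ± 20.2 CPM in the titled ETBF libraries and 146 ± 10.8 CPM in the titled untreated libraries, no higher than some blood-cell entries. Nothing in the labels ties the replicates to separate cultures, and the p-values therefore reflect library-to-library spread that may be technical.

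miR-451a and miR-144 are processed from a common transcript that the factor GATA1 switches on as red cells mature. miR-451a is unusual in that its hairpin is too short for Dicer and is cut by Argonaute 2 instead, which leaves a single mature product. miR-486 lies within ANK1, the gene of the red-cell skeleton protein ankyrin, and is also made in muscle. miR-142 marks nearly all cells of the haematopoietic line, miR-223 is the typical miRNA of neutrophils and monocytes, where it restrains granulocyte activation, and miR-150 is made in mature B and T lymphocytes and targets MYB. Blood-cell miRNAs are therefore read in body fluids as a sign of blood-cell material, and epithelial cells are not known for making them in quantity.

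The mature sequences of miR-142, miR-223 and miR-144 are shown for the comparison of their arms and seeds. They are from RefSeq on GRCh38.p14, 5′ to 3′, with the seed, bases 2 to 8, in capitals. A sequence was matched for 6 of the 11 entries.
hsa-miR-142-5p: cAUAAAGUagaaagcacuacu
hsa-miR-142-3p: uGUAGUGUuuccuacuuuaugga
hsa-miR-223-3p: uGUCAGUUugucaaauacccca
hsa-miR-223-5p: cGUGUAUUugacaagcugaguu
hsa-miR-144-5p: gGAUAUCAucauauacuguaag
hsa-miR-144-3p: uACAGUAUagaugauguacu

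No seed was shared among these 6. A further human miRNA of the RefSeq table, miR-5590-3p, had the full seed of miR-142-5p, and it held 0 counts in the titled ETBF libraries and 0 in the titled untreated libraries. miR-101-3p shared bases 2 to 7 with miR-144-3p and was far more abundant, with 3985 counts summed over the titled ETBF libraries and 3506 over the titled untreated libraries. miR-144-3p itself held 3 counts in the titled ETBF libraries and 2 in the titled untreated libraries.

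The hairpin of miR-142 is shown with its arms in capitals, the 5p arm first. It lies at chr17:58331232-58331318 on the minus strand of GRCh38.p14.
MIR142: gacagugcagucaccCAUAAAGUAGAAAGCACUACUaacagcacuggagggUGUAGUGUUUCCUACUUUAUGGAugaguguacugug

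Its arms are 15 bases apart. MIR142 overlaps an exon of the non-coding gene AC004687.1 on the same strand in GENCODE release 29. MIR144 (chr17:28861533-28861618, minus strand) and MIR451A are separated by 92 bases and both overlap an exon of the non-coding gene AC024267.1. miR-451b, whose hairpin lies opposite MIR451A on the plus strand, held 0 counts in all 6 libraries. MIR223 (chrX:66018870-66018979, plus strand) overlaps an exon of AL034397.3, and MIR150 overlaps no other annotated gene. The counts were made on GRCh37.p5, per the submitters' processing notes, so these positions serve for location and not for counting.

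The 11 entries together took a very small part of every library. They held between 121 and 275 counts per library. As a share of the library this was 0.0847%, 0.0545% and 0.0558% in titled ETBF replicates 1, 2 and 3, and 0.0774%, 0.0745% and 0.0729% in titled untreated replicates 1, 2 and 3. The exact binomial 95% intervals ran from 0.0452% at the lowest to 0.0968% at the highest in the titled ETBF libraries, and from 0.0635% to 0.0906% in the titled untreated libraries. The titled ETBF libraries lay on both sides of the titled untreated ones. Intervals cover counting error only, since PCR copies cannot be told from separate molecules in these counts.

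**Figure D1:**
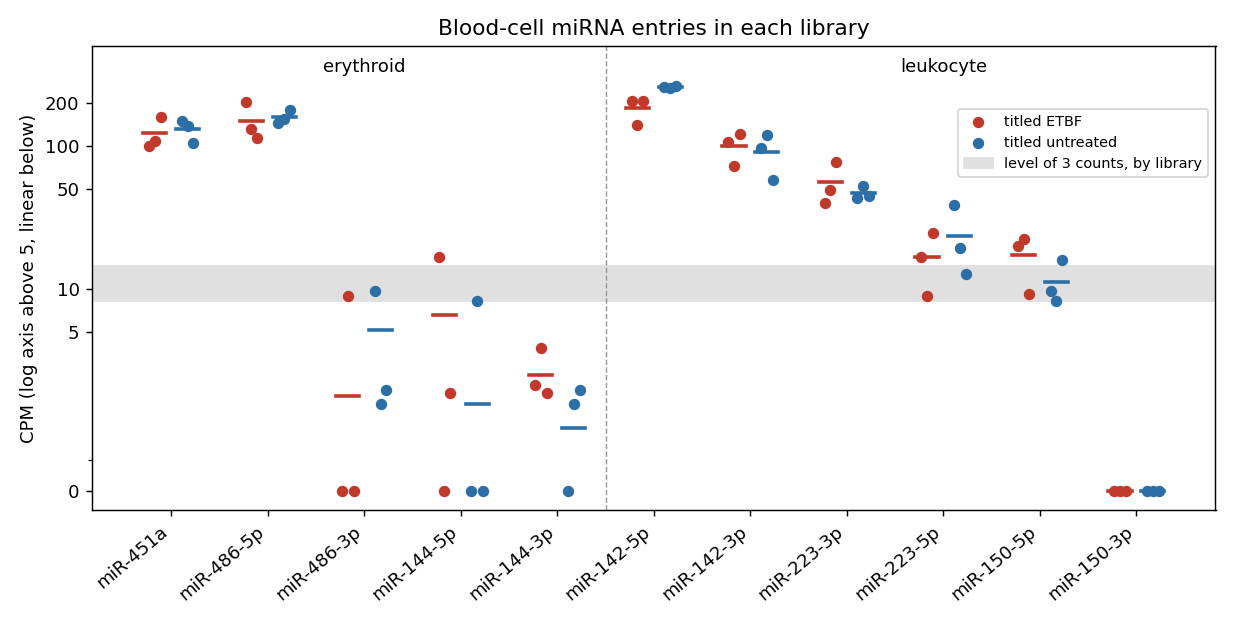
Level of each of the 11 entries in CPM (log axis above 5 CPM, linear below) in the 3 titled ETBF libraries (red, left) and the 3 titled untreated libraries (blue, right); short bars are group means, and the grey band is the level that 3 counts stand for. Of the 11 entries, 5 stand clear of the band in every library, and miR-142-5p is the only one of them whose groups do not overlap.

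miR-451a, the most abundant miRNA of red cells, held 30, 24 and 52 counts in titled ETBF replicates 1 to 3 and 31, 50 and 33 in titled untreated replicates 1 to 3. On the CPM scale that was 101, 108 and 161 in the titled ETBF libraries and 150.4, 138 and 105 in the titled untreated libraries. The highest value belonged to a titled ETBF library and the lowest to another, and the groups overlapped. Means were 123 ± 32.7 CPM in the titled ETBF libraries and 131 ± 23.2 CPM in the titled untreated libraries (SD, n = 3 each). The log2 fold change was -0.06 with a standard error (SE) of 0.24 (edgeR quasi-likelihood test, adjusted p = 0.862). The interval of 2 SE either side ran from -0.54 to 0.43, which leaves room for a moderate difference in either direction.

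miR-486-5p, known to target FOXO1, had the most counts of the erythroid entries as deposited. It held 60, 29 and 37 counts, or 201, 130.4 and 114 CPM, in the titled ETBF libraries. In the titled untreated libraries it held 30, 56 and 56 counts, or 146, 154 and 179 CPM. Titled ETBF replicate 1 was above every titled untreated library and the other two were below, so the groups overlapped. The log2 fold change was -0.10 (SE 0.24, interval of 2 SE from -0.58 to 0.37, edgeR adjusted p = 0.768). GENCODE release 29 lists 2 loci of miR-486, on opposite strands within an intron of ANK1. The sources used here do not say how reads that fit several places were counted, but the counts bear on it. miR-199b-3p has a single locus and the same mature sequence as miR-199a-3p, which has 2 loci. The ratio of miR-199a-3p to miR-199b-3p was 2.00 in every library, so those reads were counted at each locus. For miR-486-5p the counts were odd in 2 of 6 libraries, and for miR-199a-3p in 1 of 6. An odd count shows that not every read was counted at both loci, but not how many were. Divided by 2, the mean level of miR-486-5p over the 6 libraries was 77.1 CPM, and it was above miR-451a in 0 of 6 libraries. Its fold change between the titled groups does not rest on that division.

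The other 3 erythroid entries were at or near the floor. miR-144-5p held 5, 0 and 1 counts in the titled ETBF libraries and 0, 3 and 0 in the titled untreated libraries. miR-144-3p, the guide arm that represses the oxidative-stress factor NRF2, held 1, 1 and 1 counts in the titled ETBF libraries and 0, 1 and 1 in the titled untreated libraries. miR-486-3p held 0, 2 and 0 counts in the titled ETBF libraries and 2, 1 and 1 in the titled untreated libraries. No difference was detectable in any of them at this depth.

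miR-144 was thus scarce beside miR-451a although both come from a common transcript. Summed over libraries, miR-451a held 106 counts and miR-144 9 in the titled ETBF libraries, and 114 and 5 in the titled untreated libraries. Over all 6 libraries miR-451a had 15.7 times the counts of the miR-144 arms together. The count does not scale with the length of the mature miRNA, but reads that fit several loci can be counted more than once. Ligation and amplification also differ between sequences, so ratios between miRNAs are ratios of counts and not of molecules.

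miR-142-5p was the most abundant of the 11 entries and the one with the clearest difference between the titled groups. It held 61, 31 and 67 counts in the titled ETBF libraries, or 205, 139 and 207 CPM. In the titled untreated libraries it held 53, 92 and 82 counts, or 257, 253 and 262 CPM. All 3 titled ETBF libraries were below all 3 titled untreated ones. Means were 184 ± 38.4 CPM in the titled ETBF libraries and 257 ± 4.25 CPM in the titled untreated libraries (SD, n = 3 each). The log2 fold change was -0.46 (SE 0.17, interval of 2 SE from -0.80 to -0.12), with an unadjusted p of 0.0243 and an adjusted p of 0.0911 by edgeR, so it did not pass the threshold of 0.05 over all entries. Without titled ETBF replicate 1 it was -0.57 with an adjusted p of 0.0289, the only one of 15 alternatives in which it passed. Without titled ETBF replicate 2, the lowest library, it was -0.29 with an adjusted p of 0.298, the highest over those alternatives.

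miR-142-3p, the other arm, held 32, 16 and 39 counts in the titled ETBF libraries, or 107, 72.0 and 120.4 CPM. In the titled untreated libraries it held 20, 43 and 18 counts, or 97.0, 118 and 57.5 CPM. The lowest value was in titled untreated replicate 3, the groups overlapped, and the log2 fold change was 0.16 (SE 0.30, interval of 2 SE from -0.45 to 0.77, edgeR adjusted p = 0.734).

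miR-223-3p, the guide arm of the myeloid miRNA, held 12, 11 and 25 counts in the titled ETBF libraries, or 40.3, 49.5 and 77.2 CPM. In the titled untreated libraries it held 9, 19 and 14 counts, or 43.7, 52.3 and 44.7 CPM. Titled ETBF replicate 3 was the highest of the 6 libraries and titled ETBF replicate 1 the lowest. The log2 fold change was 0.25 (SE 0.30, interval of 2 SE from -0.35 to 0.85, edgeR adjusted p = 0.565). Its partner miR-223-5p was near the floor, with 5, 2 and 8 counts in the titled ETBF libraries and 8, 7 and 4 in the titled untreated libraries.

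miR-150-5p, the lymphocyte miRNA, held 6, 5 and 3 counts in the titled ETBF libraries and 2, 3 and 5 in the titled untreated libraries. These values straddle the floor and overlap between the groups. miR-150-3p had 0 counts in all 6 libraries, which allows up to 3 counts in each, or 8.26 to 14.6 CPM. miR-155-5p, a miRNA of activated lymphocytes and macrophages, was also low, with 8, 4 and 5 counts in the titled ETBF libraries and 1, 10 and 8 in the titled untreated libraries.

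Of the 5 tested entries, 0 passed an adjusted p of 0.05 by edgeR, against 14.4% of all 195 tested entries (10.8% higher and 3.59% lower in the titled ETBF libraries). At an unadjusted p under 0.05 there was 1, miR-142-5p, and DESeq2 and limma-voom also called 0. The groups did not overlap for 1 of the 5, where the share over all tested entries was 39%. The median log2 fold change of the 5 was -0.06 and that of all tested entries -0.03. The median SE was 0.24 for the 5 and 0.18 for all tested entries. The sign of 4 of the 5 turned in at least 1 of the alternatives tried, miR-142-5p being the exception.

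**Figure D2:**
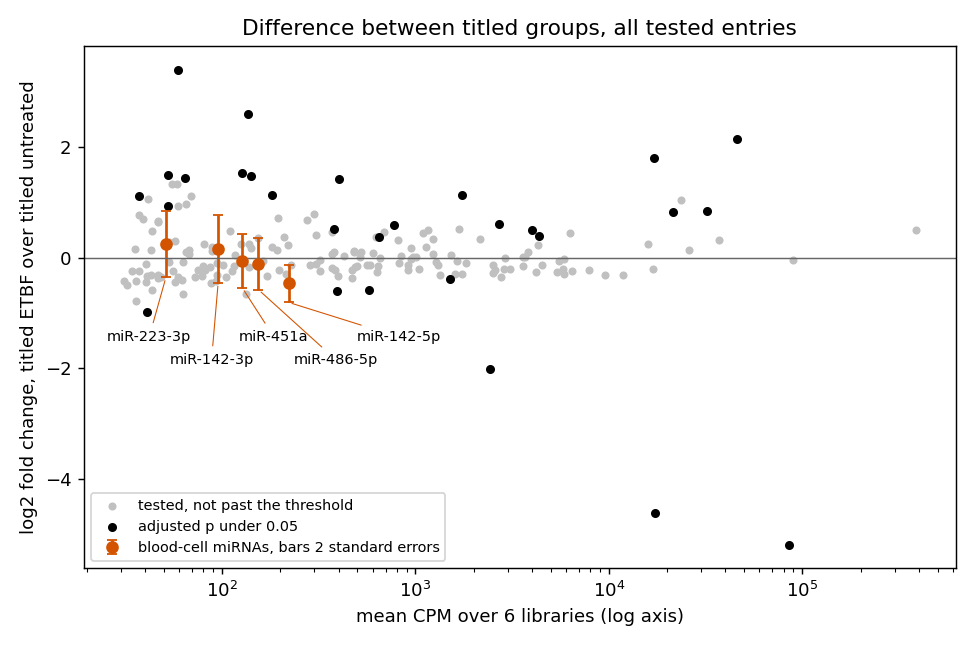
Log2 fold change of the titled ETBF over the titled untreated libraries against the mean level in CPM (log axis) for the 195 tested entries; black points passed an adjusted p of 0.05, and orange points with bars of 2 SE are the 5 blood-cell entries. The 5 lie between -0.46 and 0.25, and only the bar of miR-142-5p lies wholly on the same side of 0.

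By mean level of the deposited counts over the 6 libraries the order was miR-142-5p (221 CPM), miR-486-5p (154 CPM), miR-451a (127 CPM), miR-142-3p (95.5 CPM), miR-223-3p (51.3 CPM), miR-223-5p (20.2 CPM) and miR-150-5p (14.3 CPM). miR-144-5p, miR-486-3p and miR-144-3p followed at 4.69, 4.11 and 2.82 CPM. miR-142-5p was above miR-486-5p in 6 of 6 libraries, whereas miR-486-5p was above miR-451a in 4 of 6 and miR-223-5p above miR-150-5p in 3 of 6, so those last pairs had no fixed order. miR-142-3p was above miR-223-3p in 6 of 6. Within the whole table miR-142-5p ranked 106 and miR-486-5p 118 by mean CPM, miR-451a 126, miR-142-3p 135 and miR-223-3p 171, out of 717 entries with a count. With miR-486 divided by its 2 loci, miR-486-5p came to rank 147, below miR-451a and miR-142-3p.

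The leukocyte entries, with miR-142 among them, outweighed the erythroid ones in every library. The erythroid entries summed to 322, 252 and 281 CPM in titled ETBF replicates 1 to 3, and to 306, 306 and 291 CPM in titled untreated replicates 1 to 3. The leukocyte entries summed to 389, 292 and 438 CPM in titled ETBF replicates 1 to 3 and to 446, 452 and 393 CPM in the titled untreated libraries. In neither class were the titled groups apart. miR-486-5p supplied 52.8% of the erythroid counts. Of the leukocyte counts, miR-142 held 246 in the titled ETBF libraries and 308 in the titled untreated libraries. miR-223 held 63 in the titled ETBF and 61 in the titled untreated libraries, and miR-150 held 14 and 10. The leukocyte excess thus rested on miR-142, found in nearly all haematopoietic cells. Without miR-142 the erythroid entries had the more counts in both titled groups. Fewer vesicles carrying a miRNA and less of it per vesicle cannot be told apart in such bulk RNA.

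**Figure D3:**
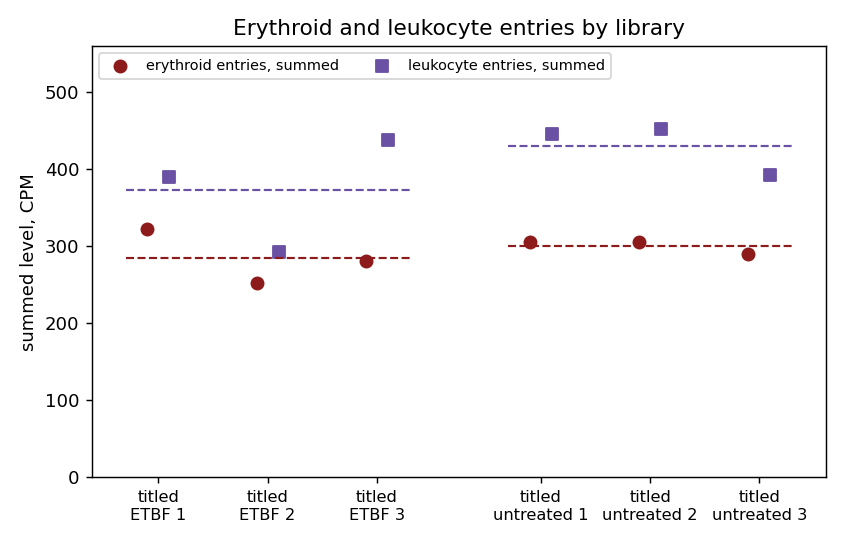
Summed level in CPM of the 5 erythroid entries (circles) and the 6 leukocyte entries (squares) in the 3 titled ETBF libraries (left) and the 3 titled untreated libraries (right); dashed lines are group means. The leukocyte sum is above the erythroid sum in each library, and titled ETBF replicate 2 is lowest in both.

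The mean erythroid sum was 285 ± 35.4 CPM in the titled ETBF libraries and 301 ± 8.70 CPM in the titled untreated libraries, and the mean leukocyte sum was 373 ± 74.4 CPM in the titled ETBF libraries and 430.2 ± 32.6 CPM in the titled untreated libraries (SD, n = 3 each). The log2 ratio of the mean leukocyte sums was -0.20, and 0.14 when miR-142-5p was left out. Without titled ETBF replicate 2 it was -0.02, and without titled ETBF replicate 3 it was -0.34. That of the erythroid sums was -0.08, and 0.044 without titled ETBF replicate 2, so neither sum had a firm direction. The erythroid share of the 11 entries' counts was 45.3%, 46.3% and 39.1% in the titled ETBF libraries and 40.6%, 40.4% and 42.5% in the titled untreated libraries, each with an exact 95% interval of which the widest ran from 37.2% to 55.6%. The erythroid to leukocyte ratio averaged 0.777 ± 0.119 in the titled ETBF libraries and 0.700 ± 0.0343 in the titled untreated libraries (SD, n = 3 each), with the titled untreated values inside the range of the titled ETBF libraries. With miR-486 divided by its 2 loci the ratio averaged 0.568 ± 0.0563 in the titled ETBF libraries and 0.507 ± 0.00397 in the titled untreated libraries. The groups then overlapped only barely, with 0.5106 in titled ETBF replicate 3 and 0.5109 in titled untreated replicate 1.

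The ratio of miR-23a-3p to miR-451a is customarily used to judge red-cell lysis in plasma, because miR-451a rises with lysis and miR-23a hardly does. Here it was 9.80, 12.4 and 9.10 in the titled ETBF libraries and 5.55, 7.48 and 8.67 in the titled untreated libraries, in counts. The groups did not overlap, with a difference of 0.54 in the mean log2 ratio (two-sided exact permutation of the libraries, p = 0.1, which is the lowest value 3 against 3 can give). miR-23a-3p stood at 1263 ± 246 CPM in the titled ETBF libraries and 926 ± 98.4 CPM in the titled untreated libraries (log2 fold change 0.44, SE 0.15, edgeR adjusted p = 0.0772), which did not pass. The log2 fold change of miR-451a was -0.06 (SE 0.24), so the difference in the ratio lay mostly with miR-23a-3p. For single entries, the groups did not overlap in CPM for 39% of all tested entries. Whether the ratio gauges red-cell lysis in exosomes of a cell line was not tested.

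The arms of miR-142 differed in level in every library, with more counts of the 5p than of the 3p arm, the hairpin shown above. The 3p arm made up 34.4%, 34.0% and 36.8% of miR-142 counts in titled ETBF replicates 1 to 3, and 27.4%, 31.9% and 18.0% in titled untreated replicates 1 to 3. The titled ETBF libraries were all above the titled untreated ones. The exact binomial 95% intervals were wide, from 20.9% to 49.3% in titled ETBF replicate 2 and from 11.0% to 26.9% in titled untreated replicate 3. The mean share was 35.1% ± 1.49 in the titled ETBF libraries and 25.7% ± 7.07 in the titled untreated libraries (SD, n = 3 each).

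**Figure D4:**
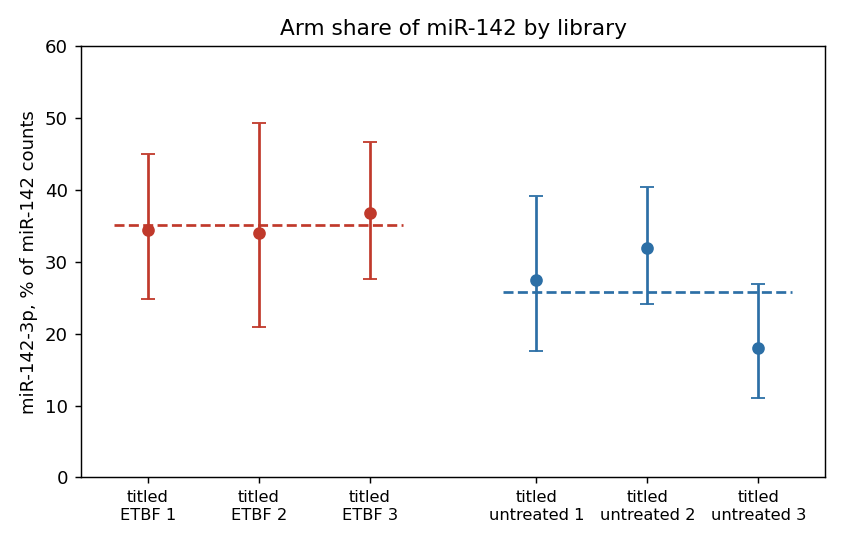
Share of miR-142-3p among all miR-142 counts in percent in each of the 3 titled ETBF libraries (red, left) and 3 titled untreated libraries (blue, right), with exact binomial 95% intervals for counting error; dashed lines are group means. The titled ETBF values lie between 34.0% and 36.8%, and titled untreated replicate 3 is lowest at 18.0%.

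On the log2 scale the 3p to 5p ratio averaged -0.89 ± 0.09 in the titled ETBF libraries and -1.56 ± 0.56 in the titled untreated libraries (SD, n = 3 each), a difference of 0.68. The exact permutation test, two-sided, gave p = 0.1, the smallest that 3 against 3 libraries allow. Without titled untreated replicate 3 the difference was 0.36. Because both arms come from a single hairpin in a single library, the ratio does not depend on how libraries were scaled.

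A difference of that kind was common in these libraries. Of 26 hairpins with both arms tested and counted in every library, 9 had arm ratios whose groups did not overlap, or 34.6%, with the 3p share higher in the titled ETBF libraries in 4 and lower in 5. miR-142 ranked 8 among the 26 by the size of the difference, and the median size was 0.39. The largest was miR-151a at 1.47, whose groups overlapped, as did those of miR-99b at 0.85. miR-374a, miR-574 and miR-30e, at 1.03, 0.98 and 0.77, moved further the same way without overlap. miR-10a at -1.15 (SD 1.15 in the titled ETBF libraries) and miR-1307 at -0.84 moved further the other way, also without overlap.

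**Figure D5:**
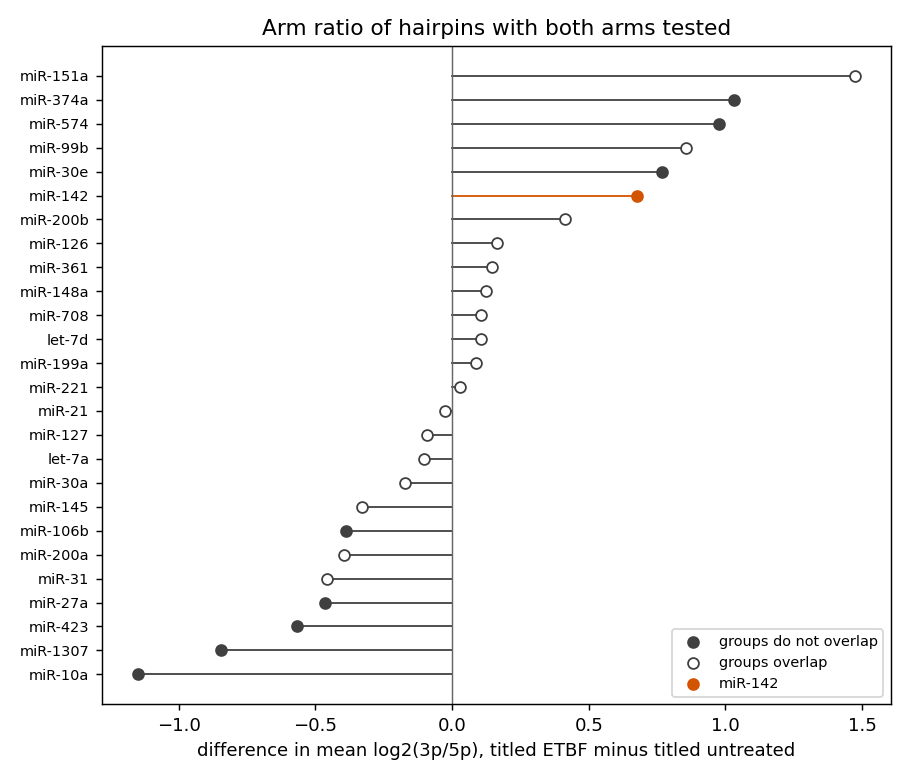
Difference in the mean log2 ratio of 3p to 5p counts, titled ETBF minus titled untreated, for the 26 hairpins with both arms tested; filled points have groups of libraries that do not overlap. miR-142 (orange, 0.68) is among the 9 filled points and is not the largest in either direction.

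miR-223 gave mostly 3p and miR-486 nearly all 5p counts. Summed over libraries, miR-223-3p made up 76.2% of miR-223 counts in the titled ETBF libraries and 68.9% in the titled untreated libraries, with exact 95% intervals of 63.8% to 86.0% for titled ETBF and 55.7% to 80.1% for titled untreated. miR-486-3p made up 1.56% of miR-486 counts in the titled ETBF libraries and 2.74% in the titled untreated libraries. For miR-144 and miR-150 the counts were too few to give an arm share: 9 and 14 counts in the titled ETBF libraries, and 5 and 10 in the titled untreated libraries.

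The spread between libraries was compared with what counting alone would give, the latter as 1 over the square root of the mean count. In the titled ETBF libraries the coefficient of variation (CV) was above the counting value for 5 of the 5 tested entries, and in the titled untreated libraries for 2 of 5. These counts rest on the scaling: with library totals alone they were 3 of 5 in the titled ETBF libraries and 1 of 5 in the titled untreated libraries. The CV of miR-451a in the titled ETBF libraries was 26.5% with TMM and 7.22% with library totals alone (counting 16.8%), and that of miR-223-3p was 34.5% with TMM and 12.4% with library totals alone (counting 25.0%). The other 3 moved the opposite way in the titled ETBF libraries. With library totals alone their CVs rose to 50.9% for miR-486-5p, 30.3% for miR-142-5p and 28.7% for miR-142-3p. On the TMM scale miR-486-5p varied by 31.2% in the titled ETBF libraries, against 15.4% from counting, and by 10.8% in the titled untreated libraries, against 14.5%. miR-142-5p varied by 20.9% (counting 13.7%) in the titled ETBF libraries and by 1.65% (counting 11.5%) in the titled untreated libraries. The 3 titled untreated libraries thus lay closer together for this entry than counting error gives on average. miR-142-3p had a CV of 25.1% in the titled ETBF libraries and 34.0% in the titled untreated libraries (counting 18.6% in the titled ETBF libraries and 19.2% in the titled untreated libraries).

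The summed levels of other lists also differed between the titled groups, and their part in the value of miR-142-5p was not tested. The gut epithelial list also holds miR-203a and the miR-200 family, which are epithelial but not particular to gut. It summed to 39468 to 44492 CPM in the titled ETBF libraries and 46968 to 48208 CPM in the titled untreated libraries. The muscle, liver and neural list summed to 21850 to 25176 CPM in the titled ETBF libraries and 26417 to 27226 CPM in the titled untreated libraries. Both sums were lower in the titled ETBF libraries without overlap. Of the 6 tested entries of the muscle, liver and neural list, however, the only one that passed was higher, neural miR-9-3p. It stood at 108 ± 51.9 CPM in the titled ETBF libraries and 10.4 ± 9.02 CPM in the titled untreated libraries (SD, n = 3 each, log2 fold change 3.40, edgeR adjusted p = 0.00705). The titled untreated mean lies within the 8.26 to 14.6 CPM that 3 counts stand for, so the size of that change is uncertain. The other arm, miR-9-5p, was far more abundant, at 1381 ± 132 CPM in the titled ETBF libraries and 1078 ± 283 CPM in the titled untreated libraries. It did not pass (log2 fold change 0.34, edgeR adjusted p = 0.210). Muscle miR-1, which makes up most of the sum, did not pass either (log2 fold change -0.20, edgeR adjusted p = 0.237). The sum of the list of other entries found in blood cells went the other way. It was 10768 to 11049 CPM in the titled ETBF libraries and 10335 to 10637 CPM in the titled untreated libraries, again without overlap. That gap is narrow, and none of the sums of these other lists was checked with other scalings. The median log2 fold change of its 9 tested entries was -0.07, so the direction is that of the sum and not of most entries. Entries that overlap structural RNAs, led by miR-7641, summed to 6126 to 7806 CPM in the titled ETBF libraries and 163632 to 274552 CPM in the titled untreated libraries. The erythroid entries, whose defining marker miR-451a was present in every library and whose miR-144 arms were near 0, did not separate in that way. Their sum rested on only 56 to 111 counts per library. A shift as small as those of the gut epithelial and the muscle, liver and neural sums could go unseen in it.

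Set beside the sums of those lists, blood-cell miRNAs were scarce. The gut epithelial list had 57.0 to 72.5 times the counts of the 11 entries in the titled ETBF libraries and 62.0 to 70.2 times in the titled untreated libraries. Muscle miR-1 and liver miR-122-5p had 134 and 42.4 times the mean CPM of miR-451a over the 6 libraries, as counted, and miR-1 has several loci. That list of 18 entries found in blood cells but also elsewhere had 9 tested, of which 0 passed by edgeR, DESeq2 or limma-voom and 2 had an unadjusted edgeR p under 0.05, with a median log2 fold change of -0.07. The most abundant of them were miR-92a-3p, of the miR-17-92 cluster family, at 3941 ± 240 CPM in the titled ETBF libraries and 3678 ± 30.9 CPM in the titled untreated libraries, and miR-25-3p at 2412 ± 358 CPM in the titled ETBF libraries and 1894 ± 214 CPM in the titled untreated libraries (SD, n = 3 each). Of the gut epithelial list 11 entries were tested and 1 was lower, miR-375. Its most abundant were miR-203a at 10625 ± 963 CPM in the titled ETBF libraries and 13154 ± 1132 CPM in the titled untreated libraries, and miR-192-5p.

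The likeness of pattern across the 6 libraries was measured as the root mean square difference of log2 CPM centred on the mean. Nearest to miR-486-5p were miR-22-3p (0.16), miR-361-5p (0.17) and miR-141-3p (0.20), against a median of 0.36 over the tested entries outside the 11. Nearest to miR-451a were miR-136-3p (0.17), miR-152-3p (0.18) and miR-125b-5p (0.19), against a median of 0.36. Nearest to miR-142-5p were miR-30a-3p (0.10), miR-31-3p (0.12) and miR-127-3p (0.14), against a median of 0.36. Of these 9 only miR-127-3p passed, with 457 ± 41.8 CPM in the titled ETBF libraries and 689 ± 59.9 CPM in the titled untreated libraries (SD, n = 3 each, log2 fold change -0.58, edgeR adjusted p = 0.0113).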

How the data were processed

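Per the labels' protocols, exosomes were collected by centrifugation and Trizol RNA went into Illumina libraries. The authors deposited raw whole-number counts per mature miRNA entry. The submitters' processing notes name Trimmomatic, FastQC, featureCounts and GRCh37.p5. The sources used here give no aligner, annotation or treatment of multiply placed reads. Entries with several loci can be counted once per locus, and dividing miR-486 by its loci was added after seeing the data. Groups follow the sample titles.

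Of 2575 entries, 195 passed edgeR's filterByExpr (minimum count 10). TMM scaling (factors 0.776 to 1.19, on full library totals) gave CPM, and edgeR's quasi-likelihood F-test with Benjamini-Hochberg adjustment over all 195 entries was applied, with SE taken as |log2 fold change| / sqrt(F). Arm ratios used exact permutation of libraries. Sums over the chosen entries were described with no test. The entries named are all members, the 2 most abundant tested entries of context lists, miR-23a-3p and the 3 nearest patterns (those of miR-451a added later). Further entries serve as context, some chosen after their values were seen. These are miR-375, miR-155-5p, miR-101-3p, miR-5590-3p, miR-1, miR-122-5p, miR-9-3p, miR-9-5p, miR-199a-3p, miR-199b-3p, miR-7641 and the other hairpins named for their arm ratios. Members and lists were chosen with earlier results of these data known.

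On counts simulated for this comparison (2575 entries, 192 tested), the test called 86.4% of the 22 tested entries given a 2-fold change and 100% of the 28 given a 4-fold change. The simulation gave every entry the same spread beyond counting. It therefore does not give the share that would be called among the 5 blood-cell entries, all of which differed less than 2-fold. Alternatives were other scalings, filters, DESeq2, limma-voom, a replicate block and leaving out each library. The tools were edgeR 4.0.16, DESeq2 1.42.0 and limma 3.58.1 under R 4.3.3, with matplotlib 3.10.9 for plots.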

Additional observations from a re-analysis of the deposited data

How the results depend on the processing

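Over 15 alternatives the 5 tested blood-cell entries gave 75 values, of which 66 kept the sign and 1 passed the threshold. When single libraries were left out, the log2 fold change of miR-451a ran from -0.32 to 0.055, of miR-486-5p from -0.44 to 0.072, of miR-223-3p from -0.10 to 0.42 and of miR-142-3p from -0.16 to 0.45, and so turned for these 4, while miR-142-5p ran from -0.57 to -0.29. With upper-quartile scaling miR-451a was at 0.013. The count of called blood-cell entries was 0, and 0 to 1 when single libraries were left out, the 1 being miR-142-5p without titled ETBF replicate 1. Over all entries the 28 calls became 51 with no filter and 17 to 59 when single libraries were left out, with 59 for the removal of titled ETBF replicate 1 and 17 for that of titled ETBF replicate 3 or of titled untreated replicate 3. The higher share of calls, 75%, was 85.7% with upper-quartile scaling and 88.2% when the structural-RNA list was left out. The log2 ratio of the summed leukocyte entries was 0.14 without miR-142-5p, against -0.20, and -0.34 to -0.02 when single libraries were left out; that of the erythroid entries was -0.21 to 0.044. With miR-486 divided by its loci, the difference in the log2 erythroid to leukocyte ratio was 0.16, against 0.14. The median CV of the tested entries was 14.9% with library totals alone, against 22.99%. In the titled ETBF libraries, however, the CVs of miR-486-5p, miR-142-5p and miR-142-3p were higher with library totals alone. The arm difference of miR-142 was 0.36 to 0.91 when single libraries were left out. The replicate block gave 38 calls, 26 of them among the 28, and 0 blood-cell entries. Under it the arm ratio had p = 0.25 by exact sign permutation, the smallest that 3 pairs allow. Same-numbered libraries did not all deviate together (Pearson r across entries of 0.14, 0.06 and -0.03). With 3 libraries per group these values cannot tell whether such libraries were paired, and the labels do not say. Depth limits miR-144, miR-150, miR-486-3p and miR-223-5p. The causes of these moves were not tested.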
